A study of Mus musculus with 24 samples.

Results

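Neurotrophins and GDNF are secreted growth factors that act through receptors on the surface of responding cells. The 8 genes described here encode 3 of the ligands (Bdnf, Ntf3 and Gdnf), the shared neurotrophin receptor Ngfr, the receptor tyrosine kinases Ntrk2, Ntrk3 and Ret, and the GDNF co-receptor Gfra1. They were taken by symbol, with the transcript of the largest summed value over the 12 libraries standing for each symbol, and are 8 of the 19409 symbols in the table. All 8 passed the filter on low counts (10 reads in 3 or more libraries), with between 575 (Gdnf) and 8826 (Ret) reads over the 12 libraries. Gdnf passed only through its OHT-treated libraries, as its untreated ones held 2 to 10 reads.

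The data are calibrated RNA-seq (cRNA-seq) of total RNA from mouse embryonic stem cells (ESCs) of the E14 strain, grown on gelatin with serum and leukemia inhibitory factor. Drosophila SG4 cells added before RNA extraction put the libraries on a scale set by cell number. PRC1CKO cells, of clone B9, carry Ring1a-/- and Ring1bfl/fl together with Rosa26::ERT2-Cre. They lose RING1B, and with it PRC1, once 4-hydroxytamoxifen (OHT) switches on the Cre recombinase. PRC1CPM cells, of clone 41, carry Ring1a I50A/D53K, a floxed Ring1b that changes from wild type to I53A/D56K, and the same Rosa26::ERT2-Cre. They are designed to keep the complex after OHT but without its ubiquitylation of histone H2A. Both lines were measured untreated (0 h) and after 800 nM OHT for 72 h, with 3 libraries in each of the 4 conditions, so that loss of the complex can be set against loss of its catalysis. Each line is a single clone, so differences between the lines cannot be told apart from differences between clones. No cells with OHT and an intact Ring1b were among the libraries compared, so an effect of OHT or of Cre itself cannot be told apart from that of the Ring1b change.

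The libraries held 14668159 to 27016156 reads over gene bodies, with medians of 20998133 for untreated and 24004077 for OHT-treated PRC1CKO cells, and of 19062652 and 23164194 for PRC1CPM cells. Levels are normalised read counts, which are reads over the whole gene body, introns included, divided by the library's spike-in size factor. Fold changes are on the scale of log2(normalised read count + 1), which understates changes of low genes, and adjusted p-values are those of limma over the 16940 transcripts tested. The labels number the libraries of a condition without saying that they came from separate cultures, so p-values measure the spread between these libraries.

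The gene body counts did not check the alleles. Rnf2, which encodes RING1B, had normalised read counts of 1756, 1436 and 1385 in untreated PRC1CKO cells and of 1489, 1565 and 1585 after OHT, and a count over its whole body does not show whether 1 exon was removed. In PRC1CPM cells Rnf2 stood at 1850.1, 1659 and 1578 untreated and at 1724, 1295 and 1513 after OHT. Ring1, which encodes RING1A, was at 313, 204 and 166 in untreated and at 281, 251 and 229 in treated PRC1CKO cells, whose label gives the gene as -/-. In PRC1CPM cells, where the label gives it as substituted and not deleted, Ring1 stood at 179, 182 and 125 untreated and at 161, 111 and 148 after OHT, so its counts were not lower in the line labelled -/-, and they do not show which bases were removed.

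Neurotrophins bind the NTRK receptors, each with its preferred ligands, and also bind NGFR, while GDNF binds the cell surface protein GFRA1, which brings it to RET. These pathways are known for the survival and wiring of neurons and, for RET, for the growth of the enteric nervous system and of the ureteric bud of the kidney. Polycomb complexes are known for keeping genes of later development silent in ESCs.

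After OHT most of these genes were higher in both lines. In PRC1CKO cells 7 of the 8 members rose (16.5% of all transcripts tested were called higher) and 0 fell (3.09%). In PRC1CPM cells 6 rose (13.1%) and 0 fell (1.4%). The same 6 genes, Ntf3, Gdnf, Ntrk2, Ntrk3, Ret and Gfra1, rose in both lines (11.6%). Bdnf rose in PRC1CKO cells, and Ngfr passed the threshold in neither line. The median log2 fold change of the members was 1.90 in PRC1CKO cells, against 0.12 for all transcripts tested, and 1.59 in PRC1CPM cells, against 0.10. Over all transcripts tested, 2787 were called higher and 524 lower in PRC1CKO cells, and 2226 and 237 in PRC1CPM cells. With 1 library left out these counts ran from 2017 to 3729 and 325 to 673 in PRC1CKO cells, and from 1435 (without treated replicate 1) to 2547 and 121 (without treated replicate 2) to 339 in PRC1CPM cells. With TMM scaling, which moves the median of all transcripts to -0.0019 and -0.0072, these splits were 2845 and 1133, and 2396 and 595. Relative to the median of all transcripts on the spike-in scale, the members that rose in PRC1CKO cells had log2 changes of 0.75 (Bdnf) to 3.50 (Gdnf), and Ngfr was at -0.32. Every OHT-treated library lay above every untreated one for 7 members in PRC1CKO cells (22.1% of transcripts did so) and for 6 in PRC1CPM cells (18.7%).

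**Figure D1:**
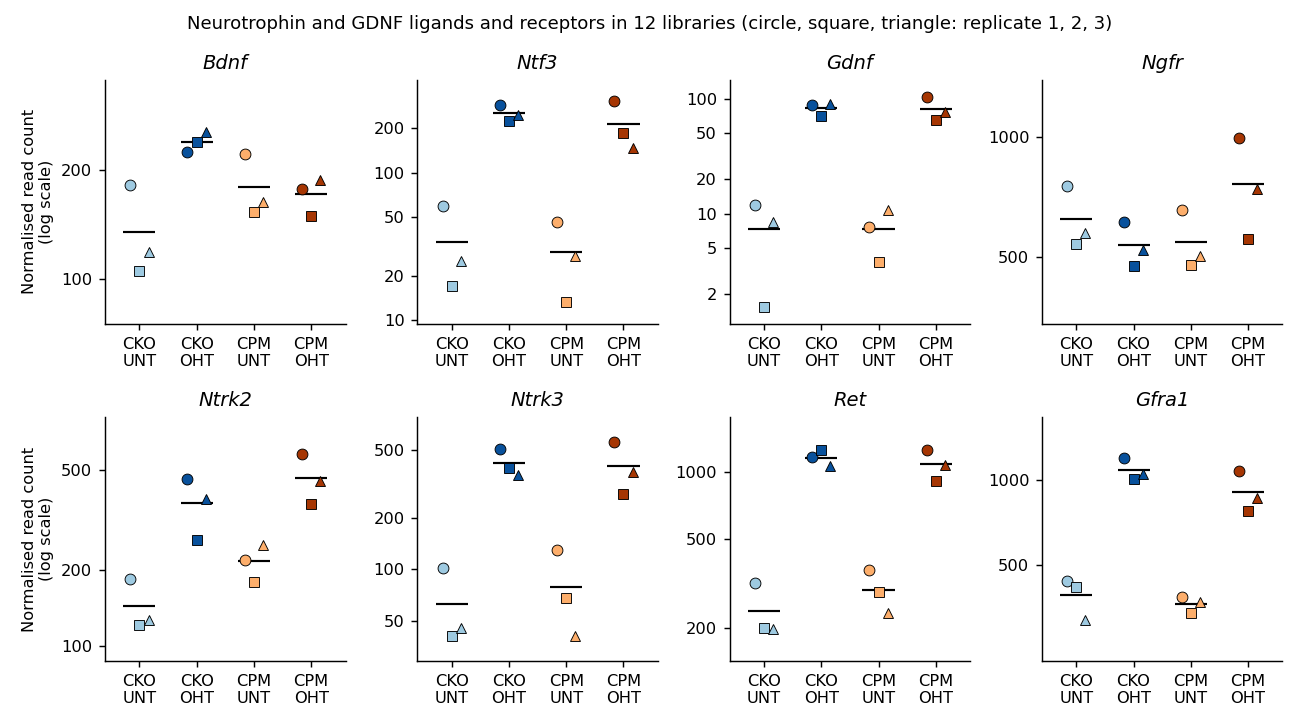
Normalised read counts (log axis, a separate range for each gene) of the 8 members in the 12 libraries, with replicates 1, 2 and 3 as circles, squares and triangles and condition means as bars. The OHT-treated libraries stand above the untreated ones in both lines for Ntf3, Gdnf, Ntrk2, Ntrk3, Ret and Gfra1, for Bdnf in PRC1CKO cells alone, and for Ngfr in neither line.

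**Figure D2:**
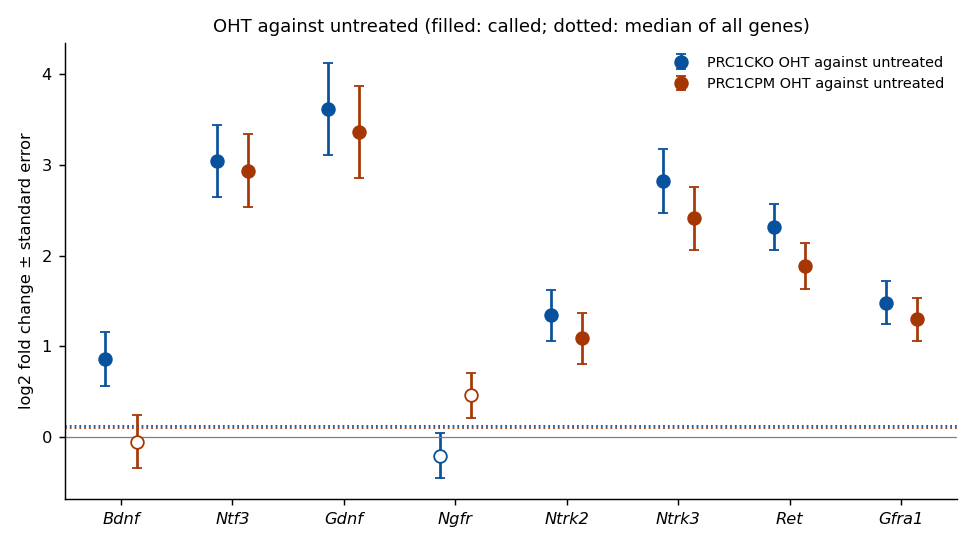
Log2 fold changes of OHT-treated against untreated cells with their standard errors (limma, 3 libraries in each condition), in blue for PRC1CKO and in brown for PRC1CPM, filled where called, with dotted lines at the medians of all transcripts. Gdnf has the largest values, 3.61 and 3.37, and the open points are Bdnf in PRC1CPM cells and Ngfr in both lines.

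Of the ligands, Ntf3 encodes neurotrophin-3, which prefers the receptor NTRK3. Its transcript NM_001164035 covers chr6:126101412-126164960 on the minus strand, with 2 exons. Untreated PRC1CKO libraries held normalised read counts of 59.6, 16.9 and 25.4 for Ntf3, and OHT-treated ones 287, 225 and 247. In PRC1CPM cells the values were 46.0, 13.2 and 27.1 untreated and 304, 185 and 148 after OHT. The lowest treated library of either line was thus above the highest untreated one, and replicate 1 was the highest of its condition in all 4 conditions. Ntf3 rose by 3.05 ± 0.40 (log2, SE) in PRC1CKO cells (limma adjusted p = 2.28e-08) and by 2.94 ± 0.40 in PRC1CPM cells (adjusted p = 1.45e-07). On these fits that is 8.26-fold and 7.66-fold.

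Gdnf encodes the founding ligand of the GDNF family and was the lowest of the members in reads. Its longer transcript, NM_001301332, covers chr15:7810048-7837580 on the plus strand. In untreated cells it had 8, 2 and 10 reads in PRC1CKO and 6, 4 and 8 reads in PRC1CPM libraries, which are normalised read counts of 11.9, 1.54 and 8.46 and of 7.67, 3.77 and 10.8. All of these read counts are even. If both mates of a paired-end fragment were counted, the fragments are fewer than the reads, and this was not tested. After OHT the Gdnf counts were 87.7, 70.3 and 89.0 in PRC1CKO cells. They were 104, 64.9 and 76.7 in PRC1CPM cells, so the groups did not overlap in either line and the treated means, 82.3 ± 10.4 and 82.0 ± 20.2 (SD, n = 3), were close. Gdnf rose by 3.61 ± 0.51 (log2, SE; limma adjusted p = 1.13e-07) and by 3.37 ± 0.51 (adjusted p = 1.23e-06), the largest changes among the members. It passed the filter on low counts only through its OHT-treated libraries, where it was high. With no filter it was also called in both lines. With so few untreated reads the size depends on the pseudocount: with 0.1 in place of 1 the log2 changes were 3.89 and 3.54.

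The table holds a second, nested Gdnf transcript, NM_001301333, that begins at position 7813727, so reads before that start follow by subtraction. After OHT the reads from the second start on made up 83.5% ± 3.79 (SD, n = 3) of Gdnf reads in PRC1CKO and 88.8% ± 8.14 in PRC1CPM cells, and that stretch is 86.6% of the gene body. In untreated cells the shares, from 2 to 10 reads a library, were 93.3% ± 11.5 and 66.7% ± 28.9. The nested transcript alone rose by 3.45 ± 0.53 and 3.73 ± 0.53 (log2, SE; limma adjusted p = 7.60e-07 and 3.35e-07). Reads do not show from which start a transcript came, since a gene body count downstream takes in both. The 250 bases before the second start are shown because Gdnf had the largest change of the members and this window holds more CG dinucleotides than the one before its first start, with each CG dinucleotide in capitals (RefSeq, GRCm38.p6, chr15:7813477-7813726, plus strand):
Gdnf second start: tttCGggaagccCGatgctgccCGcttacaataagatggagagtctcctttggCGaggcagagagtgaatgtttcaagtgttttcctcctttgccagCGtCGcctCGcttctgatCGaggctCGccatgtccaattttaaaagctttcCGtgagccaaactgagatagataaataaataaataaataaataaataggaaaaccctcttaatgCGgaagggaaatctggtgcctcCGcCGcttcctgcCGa

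That window holds 14 CG dinucleotides, and 29.4% of the 32851 promoter windows of this length in the RefSeq table hold at least as many. The median window holds 6, and 92.1% hold at least 1. The window before the first Gdnf start holds 7.

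Bdnf encodes brain-derived neurotrophic factor, a ligand of NTRK2. Its longest transcript, NM_007540, covers chr2:109674700-109727043 on the plus strand, with 2 exons that make up 8.22% of that length. Untreated PRC1CKO libraries had Bdnf counts of 182, 105 and 118, and OHT-treated ones 224, 239.7 and 255, all above the untreated ones. In PRC1CPM cells the untreated libraries had 222, 153 and 163 and the treated ones 178, 149 and 187, which overlap. Bdnf rose by 0.86 ± 0.30 (log2, SE; limma adjusted p = 0.0301), or 1.82-fold, in PRC1CKO cells. In PRC1CPM cells the log2 difference was -0.051 ± 0.30 (adjusted p = 0.967), and its 95% interval ran from -0.63 to 0.53. The call in PRC1CKO cells was lost without untreated replicate 2 (0.70, adjusted p = 0.164) or 3 (0.79, 0.120), and without treated replicate 1 (0.91, 0.0728), 2 (0.86, 0.0912) or 3 (0.82, 0.120).

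Bdnf is known for a row of alternative first exons spliced to a shared last exon that holds the coding sequence. The table lists 4 nested Bdnf transcripts with the same end, which divide the gene body into 4 segments, and subtraction gave the reads in each. In PRC1CKO cells the first segment, chr2:109674700-109692435, went from 56.6, 37.7 and 27.1 normalised reads to 7.23, 15.7 and 17.4 after OHT. The second segment, chr2:109692436-109709382, went from 47.7, 29.2 and 37.2 to 83.2, 63.9 and 86.4. The fourth segment, chr2:109722921-109727043, is 1 exon of NM_001285422 that holds the shared last exon, chr2:109723382-109727043, and the bases before it. It went from 68.5, 28.5 and 47.4 to 102, 145 and 108. For each of these segments the treated and untreated libraries did not overlap. Nor did they for the third segment, at 6.76 to 9.23 untreated and 14.8 to 42.7 after OHT. Over all transcripts tested, 22.1% had every treated PRC1CKO library above every untreated one. The share with every treated library below was not counted. The first segment was lower and the others were higher after OHT.

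Within the Bdnf reads of PRC1CKO cells, the share of the first segment went from 30.0% ± 6.66 (SD, n = 3) untreated to 5.55% ± 2.01 after OHT. In PRC1CPM cells it went from 24.0% ± 5.19 to 11.2% ± 2.16, and its normalised reads from 66.5, 33.9 and 32.5 to 23.2, 13.1 and 21.9. The share was lower in every treated library than in every untreated one in both lines, and in every treated PRC1CKO library than in every treated PRC1CPM one. The normalised reads of the first segment themselves overlapped between the treated lines (p = 0.3 in an exact two-sided permutation test), where the total Bdnf count that the share is taken of was higher in all 3 PRC1CKO libraries. Each of the 3 contrasts of the share gave p = 0.1 in an exact two-sided permutation test, the smallest that this test can give with 3 against 3 libraries. No model was fitted to these shares. The second segment of PRC1CPM cells stood at 58.8, 45.2 and 43.4 untreated and 53.1, 42.5 and 65.7 after OHT, which overlap, and the fourth segment at 71.6, 64.1 and 65.1 against 78.2, 70.4 and 82.2, which also overlap. The third segment, from 109709383 to 109722920, went from a mean of 8.31 ± 1.35 to 29.7 ± 14.1 in PRC1CKO cells and from 18.9 ± 8.43 to 21.3 ± 3.26 in PRC1CPM cells. These segment counts rest on 8 to 157 reads in a library for the first, the second and the fourth segment and on 6 to 49 for the third.

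**Figure D3:**
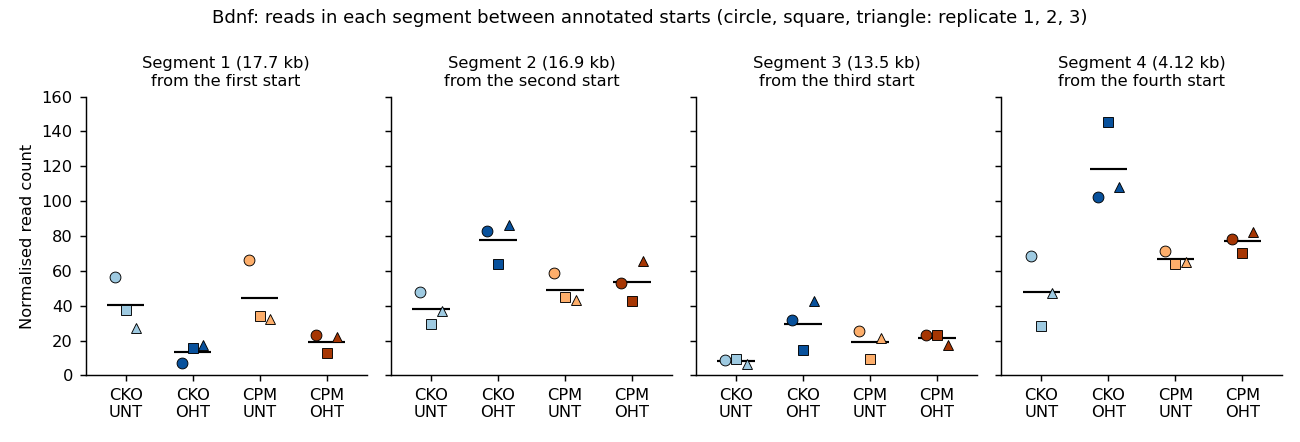
Normalised read counts in the 4 segments of the Bdnf gene body between the starts of its nested transcripts, in the 12 libraries, with condition means as bars. The first segment is lower after OHT in both lines, and the second, the third and the fourth segment are higher in PRC1CKO cells, where the fourth goes from a mean of 48.1 to 119.

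Counted from the second start in the table on (NM_001048141), Bdnf rose by 1.29 ± 0.31 (log2, SE) in PRC1CKO cells (limma adjusted p = 9.70e-04), and this was called in all 21 alternative fits, at log2 changes of 1.07 to 1.52. The same stretch gave 0.17 ± 0.31 in PRC1CPM cells (adjusted p = 0.859). The table's row for the fourth segment alone (NM_001285422) gave 1.35 ± 0.36 (adjusted p = 0.00364) and 0.20 ± 0.36 (adjusted p = 0.866). The call of that row in PRC1CKO cells was kept in 20 of 21 alternative fits and lost without untreated replicate 2 (1.03, adjusted p = 0.0662). The windows before the first and the second start are shown because the reads on either side of the second start differed in direction in PRC1CKO cells (CG in capitals, RefSeq, GRCm38.p6, plus strand, chr2:109674450-109674699 and chr2:109692186-109692435):
Bdnf first start: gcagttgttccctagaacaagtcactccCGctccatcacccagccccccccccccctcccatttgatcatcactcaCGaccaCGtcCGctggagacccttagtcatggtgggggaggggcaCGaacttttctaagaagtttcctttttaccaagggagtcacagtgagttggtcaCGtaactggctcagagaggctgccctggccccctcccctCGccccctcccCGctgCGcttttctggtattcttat
Bdnf second start: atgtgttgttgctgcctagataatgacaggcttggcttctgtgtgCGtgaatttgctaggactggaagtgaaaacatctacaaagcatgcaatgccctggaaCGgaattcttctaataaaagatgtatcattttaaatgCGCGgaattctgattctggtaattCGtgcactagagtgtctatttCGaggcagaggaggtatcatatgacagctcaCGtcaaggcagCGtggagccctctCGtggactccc

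Both windows hold 9 CG dinucleotides, a number that 40.3% of promoter windows reach or pass, and their G and C content is 58.0% and 45.6%. The window before the third start holds 1 and the window before the fourth start 7. These starts are those of the nested transcripts counted above. RefSeq also places a Bdnf start at 109677032, within the first segment, and starts at 109693027 and 109694409, within the second. Their windows hold 4, 8 and 13 CG dinucleotides, so a segment does not stand for a single start.

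Among the receptors, Ngfr encodes the p75 receptor that all neurotrophins bind. Transcript NM_033217 covers chr11:95568821-95587698 on the minus strand, with 6 exons. Its normalised read counts were 754, 540.2 and 575 in untreated and 613, 476 and 522 in OHT-treated PRC1CKO cells. In PRC1CPM cells they were 656, 477 and 504 untreated and 994, 555 and 743 after OHT. Treated and untreated libraries of Ngfr overlapped in both lines, with the treated mean the lower in PRC1CKO cells and the higher in PRC1CPM cells. The log2 differences were -0.21 ± 0.25 (SE, limma adjusted p = 0.678, 95% interval from -0.69 to 0.28) and 0.46 ± 0.25 (adjusted p = 0.278, from -0.028 to 0.94). A block for replicate number gave the PRC1CPM difference a limma adjusted p of 0.0109. It was not called, as it was below the fold change set for a call.

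Ntrk2 encodes TrkB, the receptor tyrosine kinase for BDNF. Transcript NM_001282961 covers chr13:58806569-59133970 on the plus strand, with 18 exons that make up 2.66% of it. Untreated PRC1CKO libraries had Ntrk2 counts of 185, 122 and 127, and treated ones 463, 265 and 385. PRC1CPM libraries had 219.9, 179 and 252 untreated and 581, 367 and 451 after OHT. No treated library of a line was as low as any untreated one of that line. Ntrk2 rose by 1.34 ± 0.28 (log2, SE; limma adjusted p = 2.10e-04) and by 1.09 ± 0.28 (adjusted p = 0.00403), which is 2.54-fold and 2.13-fold. RefSeq places Gm53063 on the opposite strand within Ntrk2, over 7191 bases, and reads of the 2 cannot be separated if strand was not used.

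Ntrk3 encodes TrkC, the receptor for neurotrophin-3. Transcript NM_182809 covers chr7:78300691-78577838 on the minus strand, with 14 exons. Its counts went from 101, 40.8 and 45.7 to 506, 389.7 and 357 in PRC1CKO cells. In PRC1CPM cells they went from 129, 67.9 and 40.7 to 552, 274 and 370.2. Treated and untreated libraries did not overlap in either line. Ntrk3 rose by 2.82 ± 0.35 (log2, SE; limma adjusted p = 5.09e-09) and by 2.41 ± 0.35 (adjusted p = 5.31e-07), or 7.08-fold and 5.33-fold. RefSeq places Gm39038 on the same strand within Ntrk3, over 21470 bases, and this gene has no row of its own.

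Ret encodes the kinase that signals for the GDNF family. Transcript NM_001080780 covers chr6:118151748-118197744 on the minus strand, with 19 exons. In PRC1CKO cells the counts were 319, 200.1 and 198 untreated and 1168, 1261 and 1068 after OHT. In PRC1CPM cells they were 363, 290.3 and 233 untreated and 1265, 912 and 1079 after OHT. All treated libraries of a line were above all its untreated ones, and Ret had the smallest adjusted p of the members in both lines. It rose by 2.32 ± 0.25 (log2, SE; limma adjusted p = 1.47e-10) and by 1.88 ± 0.25 (adjusted p = 8.22e-08), or 4.98-fold and 3.69-fold.

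Gfra1 encodes the membrane-anchored protein that presents GDNF to RET. Transcript NM_001285457 covers chr19:58235605-58454594 on the minus strand, with 9 exons. Its counts were 438, 416 and 318 in untreated and 1191, 1004 and 1052 in treated PRC1CKO cells. They were 385, 337 and 369 in untreated and 1074, 774 and 861 in treated PRC1CPM cells. The groups were apart in both lines, and the untreated PRC1CPM libraries had a mean of 364 ± 24.1 (SD, n = 3). Gfra1 rose by 1.48 ± 0.24 (log2, SE; limma adjusted p = 2.00e-06) and by 1.30 ± 0.24 (adjusted p = 4.26e-05). Within it RefSeq places Gm46650 on the same strand and Gm10007 on the opposite strand, and the table gives Gm10007 2 reads in all libraries together.

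Levels of different genes were compared per kb of gene body. In untreated PRC1CKO cells Ngfr was the highest, at 33.0 ± 6.07 normalised reads per kb (SD, n = 3), followed by Ret at 5.19 (from 4.30 to 6.93), Bdnf at 2.58 ± 0.785 and Gfra1 at 1.78 ± 0.291. Ntf3 (0.534 ± 0.355), Ntrk2 (0.441 ± 0.107), Gdnf (0.265 ± 0.192) and Ntrk3 (0.226 ± 0.121) followed, and each of these 4 overlapped the next in its libraries, as Bdnf overlapped Gfra1. After OHT in PRC1CKO cells Ret, at 25.3 ± 2.10 per kb, overlapped Ngfr at 28.4 ± 3.70. Gfra1 (4.94 ± 0.444), Bdnf (4.58 ± 0.292) and Ntf3 (3.98 ± 0.499) were next and each overlapped its neighbour, Gdnf followed at 2.99 ± 0.378, and the lowest pair, Ntrk3 (1.51 ± 0.283) and Ntrk2 (1.13 ± 0.305), overlapped. In treated PRC1CPM cells Ngfr (40.5 ± 11.7) and Ret (23.6 ± 3.84) did not overlap, the 4 genes from Gfra1 (4.12 ± 0.706) through Ntf3 (3.34 ± 1.28) and Bdnf (3.27 ± 0.378) to Gdnf (2.98 ± 0.733) overlapped their neighbours, and Ntrk3 (1.44 ± 0.510) and Ntrk2 (1.43 ± 0.329) were again the lowest. In untreated PRC1CPM cells the order was Ngfr (28.9 ± 5.11), Ret (6.42 ± 1.42), Bdnf (3.42 ± 0.721) and Gfra1 (1.66 ± 0.110), all apart, and then Ntrk2 (0.663 ± 0.112), Ntf3 (0.453 ± 0.259), Ntrk3 (0.286 ± 0.164) and Gdnf (0.270 ± 0.129), each overlapping the next. These are gene body values with introns, so they reflect precursor as well as spliced RNA.

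Between OHT-treated PRC1CPM and PRC1CKO cells 0 members were called by limma, edgeR or DESeq2 (1.47% of transcripts were by limma and 2.53% by DESeq2, in either direction). At an unadjusted p under 0.05 there were 0 members, and 1862 of the 16940 transcripts tested. The largest log2 differences were -0.49 ± 0.30 (SE) for Bdnf (limma adjusted p = 0.608) and 0.48 ± 0.25 for Ngfr (adjusted p = 0.487). With the replicate number as a block the Ngfr difference had a limma adjusted p of 0.0168. At under 1.5-fold it was not called. The treated Bdnf libraries did not overlap between the lines, with all 3 lower in PRC1CPM cells. The share of all transcripts that separate the treated lines in this way was not counted. The median log2 difference of the members was -0.11, against 0.097 for all transcripts. With TMM or median-of-ratios scaling in place of the spike-in, Bdnf was called lower in treated PRC1CPM cells, at -0.59 with both (adjusted p = 0.0303 and 0.0297). Under these scalings the calls over all transcripts between the treated lines went from 212 higher and 37 lower to 524 and 261 (4.63% of those tested) and to 517 and 257 (4.57%). For the other 6 members the log2 difference lay between -0.31 (Ntf3, 95% interval from -1.10 to 0.47) and 0.34 (Ntrk2, from -0.21 to 0.90).

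Untreated cells of the lines also gave 0 called members with each of these tools (2.69% of transcripts by limma). At an unadjusted p under 0.05 there was 1 member, Ntrk2, and 2391 of the 16940 transcripts tested. The median of the members was 0.26, against 0.12 for all transcripts. The largest value was that of Ntrk2, greater by 0.60 ± 0.28 (log2, SE) in untreated PRC1CPM cells (limma adjusted p = 0.315). With the replicate number as a block, Ntrk2 was called (adjusted p = 0.00876), and the calls among all transcripts went from 374 higher and 81 lower to 1631 and 253. The block also moved the calls between the treated lines, from 212 higher and 37 lower to 1131 and 232 over all transcripts, with 0 members among them, and those lower in PRC1CPM cells after OHT from 237 to 461, again with 0 members.

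The interaction of line and treatment, which asks whether the response differed between the lines, was called for 0 members by limma, edgeR or DESeq2 (0.0236% of transcripts by limma and 0.0885% by DESeq2). At an unadjusted p under 0.05 there was 1 member, Bdnf, and 497 of the 16940 transcripts tested. The interaction was largest for Bdnf at -0.91 ± 0.42 (log2, SE; limma adjusted p = 1.00, 95% interval from -1.73 to -0.094) and for Ngfr at 0.67 ± 0.35 (adjusted p = 1.00, from -0.022 to 1.35). With the replicate number as a block the limma adjusted p was 0.0646 for Bdnf and 0.0778 for Ngfr, and neither was called. The 6 genes that rose in both lines had interactions of -0.11 (Ntf3), -0.18 (Gfra1), -0.25 (Gdnf), -0.25 (Ntrk2), -0.41 (Ntrk3) and -0.43 (Ret).

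Among other genes of these pathways, from 5 lists of 69 genes of which 67 had a row and 64 were tested, 23 rose and 3 fell in PRC1CKO cells, and 19 rose and 1 fell in PRC1CPM cells. The median log2 fold changes were 0.33 and 0.37. In both lines 17 rose (11.6% of all transcripts tested did) and 1 fell. Of all transcripts tested, 16.5% were called higher and 3.09% lower in PRC1CKO cells, and 13.1% and 1.4% in PRC1CPM cells. The same shares stand beside the counts of each list below. Without PRC1CPM treated replicate 1, 12 rose and 2 fell in PRC1CPM cells. In PRC1CKO cells 1 fell without treated replicate 3, and 6 fell with TMM scaling.

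The other ligands and receptors had 6 of 9 tested genes higher and 1 lower in PRC1CKO cells, and 4 higher and 1 lower in PRC1CPM cells, with medians of 1.47 and 0.99. The GDNF family co-receptors Gfra2 (log2 changes of 3.23 and 2.33) and Gfra3 (2.11 and 2.63) rose in both lines. Gdf15, which encodes the ligand of the GFRAL receptor and responds to cell stress, fell by 1.76 in PRC1CKO cells and fell by 1.71 in PRC1CPM cells.

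Of the co-receptors and sorting receptors 6 of 11 rose in each line and 0 fell, with medians of 1.02 and 0.90. Sorcs3, of the sortilin family of VPS10 receptors that bind proneurotrophins and sort TRK receptors, had the largest change of these 5 lists, 4.84 ± 0.37 and 4.21 ± 0.37 (log2, SE), with means going from 11.6 to 346 in PRC1CKO and from 24.8 to 461 in PRC1CPM cells. Its relatives Sorcs1 (2.25 and 1.79) and Sorcs2 (1.02 and 0.90) rose too, while Sort1 was at -0.42 and -0.45 (limma adjusted p = 0.220 and 0.207). Sdc3, which encodes a syndecan that binds GDNF, rose by 1.70 and 1.16, and the NGFR partners in the Nogo receptor complex, Rtn4r (1.56 and 1.09) and Lingo1 (1.35 and 0.99), rose as well.

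Of the adaptors and signalling genes 6 of 25 rose in PRC1CKO cells (16.5% of all transcripts did) and 5 in PRC1CPM cells (13.1%). Among them 0 fell, and the medians were 0.25 and 0.23. The neuronal SHC adaptor Shc3 had the largest value, 2.88 and 2.11, and rose in both lines, and Shc2 had the lowest value, -0.60 and -0.57 (limma adjusted p = 0.143 and 0.213). Shc4, another adaptor of that family, rose in both lines, by 2.11 in PRC1CKO cells, as did the RET substrate Dok6 (2.21 and 1.03). Grb10, an imprinted adaptor gene, rose by 2.63 and 0.87 and was the 1 listed gene with a called interaction, -1.77, and with a called difference between the lines when treated and when untreated.

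Of the proteases that process proneurotrophins 3 of 8 rose in PRC1CKO and 2 in PRC1CPM cells, with medians of 0.60 and 0.55. Pcsk5 (2.78 and 1.64) and Pcsk6 (1.30 and 1.09), both proprotein convertases, rose in the 2 lines, and Furin had the lowest value in PRC1CKO cells, 0.14 (limma adjusted p = 0.801), and was at 0.091 in PRC1CPM cells (adjusted p = 0.921). Response genes of the kind that TRK and RET signalling switch on had calls in both directions. In PRC1CKO cells 2 of 11 rose (16.5% of all transcripts did) and 2 fell (3.09%). In PRC1CPM cells 2 rose (13.1%), and the medians were -0.049 and 0.26. Etv4, a target of RET in the kidney, rose by 0.76 and 1.36. Spry2 had the highest value in PRC1CKO cells, 0.92, against 0.41 in PRC1CPM cells (adjusted p = 0.261). Fos fell by 0.79 in PRC1CKO cells and was at 0.23 in PRC1CPM cells (adjusted p = 0.670). Fos, Egr1 and Arc, immediate-early genes of which Egr1 and Arc are named here after their values were seen, were called higher in treated PRC1CPM than in treated PRC1CKO cells, and these genes respond to many stimuli besides growth factors.

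**Figure D4:**
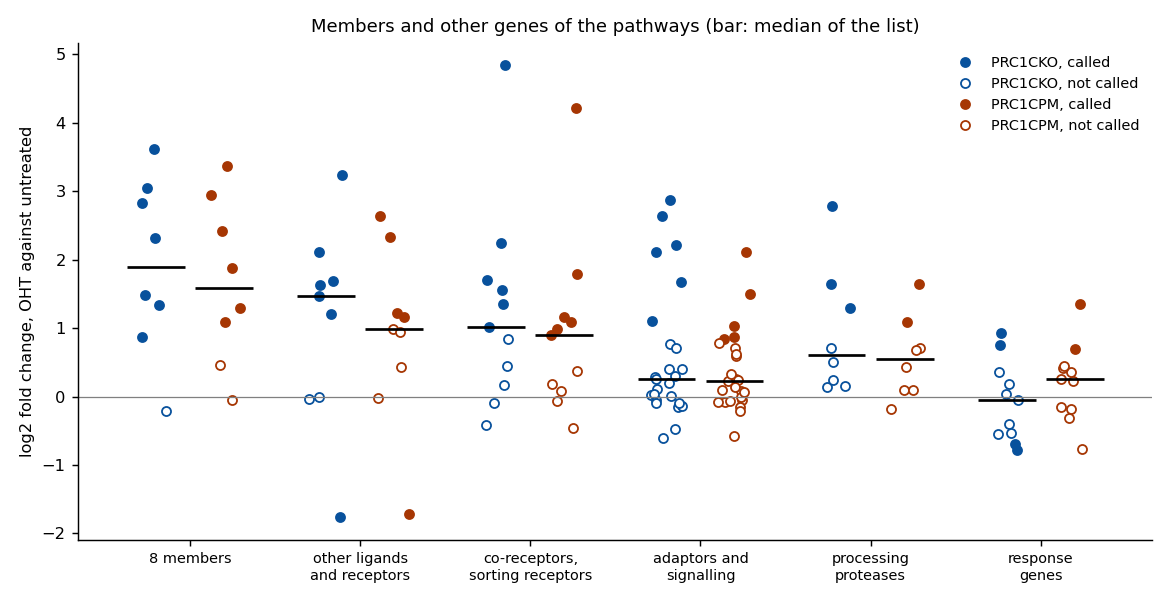
Log2 fold changes (OHT against untreated) of the tested members and of the 5 lists of other pathway genes, blue for PRC1CKO and brown for PRC1CPM, filled where called, with list medians as bars. The members have medians of 1.90 and 1.59, the other ligands and receptors 1.47 and 0.99, and the adaptors and the response genes lie nearer to 0.

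Markers of other cell types were followed because the receptors are known from such cells. All 7 measured ESC markers had reads in every library. Of them 1 (Sox2, log2 change -0.89, limma adjusted p = 5.10e-04) fell in PRC1CKO cells, where 3.09% of all transcripts did, and 0 were called in PRC1CPM cells. The summed ESC marker level ran from 53889.5 to 67283 in untreated and 44150.2 to 51465 in treated PRC1CKO libraries, and from 43168.5 to 51676 and 34871 to 52536 in PRC1CPM libraries. Esrrb, Zfp42 or Tfcp2l1 was the most abundant of them. In bulk RNA, fewer cells of a type and less RNA in each cell cannot be told apart.

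Many neural crest, nephric and extraembryonic endoderm markers were also called higher. Over all transcripts tested, 16.5% were called higher in PRC1CKO cells and 13.1% in PRC1CPM cells. Neural crest markers were higher for 7 of 9 tested genes in PRC1CKO cells and 4 in PRC1CPM cells, with summed levels of 185 to 460.3 untreated and 1254 to 1479.8 treated in PRC1CKO libraries, and of 236 to 367 and 557 to 878 in PRC1CPM libraries. Pax3 was the most abundant of them in the treated libraries, at means of 618 and 211, while Tfap2b and Hand2 were at 0 in all 3 untreated PRC1CKO libraries. Nephric markers, led by Eya1 in 7 of the 12 libraries, were higher for 7 of 8 and for 6 of 8, with summed levels from 292 to 530.3 untreated and 1330.3 to 1568 treated in PRC1CKO libraries, and 382 to 583 and 866 to 1383 in PRC1CPM libraries. Extraembryonic endoderm markers were higher for 5 and 7 of 7, with summed levels from 650.3 to 1801 and 3127 to 4379.6 in PRC1CKO and from 695 to 818 and 1531 to 2312 in PRC1CPM libraries, led by Dab2 or Pdgfra. The part of such cells in the members' changes was not tested.

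Of 8 neuron markers tested, 2 rose (Map2 and Rbfox3) and 3 fell (Tubb3, Stmn2 and Snap25) in PRC1CKO cells, and 2 rose and 1 fell in PRC1CPM cells. Over all transcripts tested, 16.5% rose and 3.09% fell in PRC1CKO cells, and 13.1% and 1.4% in PRC1CPM cells. Their summed levels were 8298 to 12903 untreated and 7492 to 9841 treated in PRC1CKO libraries, and 8171 to 10741.5 and 7209 to 11712.5 in PRC1CPM libraries, with Stmn2 the most abundant gene, and Dcx, a defining marker of young neurons, had at most 10 reads in a library. Fibroblast markers were higher for 1 (Thy1) and lower for 1 (Postn) of 5 tested in PRC1CKO cells and called in 0 in PRC1CPM cells. Their summed level, of which Col1a1 was the most abundant gene in all 12 libraries, was 14509.5 and 14757 in the untreated and treated PRC1CPM libraries numbered 1, against 3717 to 6201 in the other PRC1CPM libraries and 2039 to 5704 in PRC1CKO libraries. Lum and Dcn, defining fibroblast genes, had at most 2 and 12 reads in a library. Without these PRC1CPM libraries 6 members were still called higher in PRC1CPM cells and 7 in PRC1CKO cells.

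**Figure D5:**
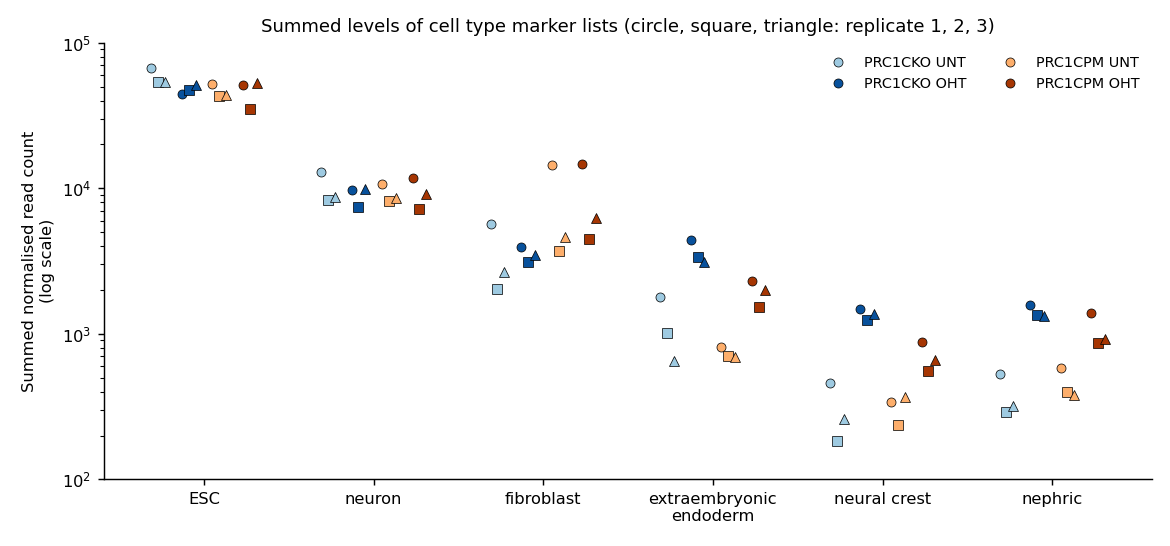
Summed normalised read counts (log axis) of 6 lists of cell type markers in each library, by condition. Endoderm, neural crest and nephric markers are higher after OHT in both lines, ESC and neuron markers differ less between conditions, and the PRC1CPM libraries numbered 1 stand apart in fibroblast markers.

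For each member, the transcript with the most similar profile of log2(normalised read count + 1) over the 12 libraries was looked up among all those tested, as a description. The points share libraries, conditions and size factors, and best matches over so many transcripts are high by selection. Ret matched the noncoding transcript 9530036O11Rik (Pearson r = 0.993), Gfra1 matched Adarb2 (0.993), Ntrk3 matched Aim1 (0.993) and Gdnf matched Mei1 (0.991), all of which rose in both lines. Ntf3 was nearest to Duoxa1 (0.987) and Ntrk2 to Prkca (0.983). For the genes that did not follow the common pattern the nearest profiles were Thtpa for Ngfr (0.963), with log2 fold changes of -0.28 and 0.37, and Diras2 for Bdnf (0.927), with 1.16 and 0.18.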

How the data were processed

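The authors discarded rDNA reads, aligned the others to mm10 joined with dm6 by STAR and, for the remainder, Bowtie2, removed PCR duplicates with Sambamba and counted uniquely aligned reads over whole gene bodies. The submitters' processing notes list DESeq2, SAMtools, bedtools and deepTools as well. The deposited signal is a normalised read count, divided by 1 size factor for each library that rests on its Drosophila reads and on the matched genomic DNA library. The gene body length is the other column of the authors used here. Whether counting used strand, and whether both mates of a paired-end fragment were counted, was not given in the sources used here. The 8 deposited columns of the authors' own comparisons hold log2 fold changes and adjusted p-values and were not used, nor was the list of partially derepressed genes.

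Every value was a whole multiple of 1 read within 0.02 of a read, in all 12 libraries, so reads were recovered. The 16940 of 20633 transcripts that reached 10 reads in 3 or more libraries were tested by limma 3.58.1 in R 4.3.3 on log2(normalised read count + 1), with 4 condition means and no block, the prior variance following mean level, and p-values adjusted by the method of Benjamini and Hochberg. A gene was called past 1.5-fold with an adjusted p below 0.05 (for the interaction, on its adjusted p alone). Intervals of 95% are normal ones from the SE. Alternatives were edgeR 4.0.16 and DESeq2 1.42.0 on recovered reads, TMM and median-of-ratios scales, no filter, 0.1 as pseudocount, a block for replicate number, only the groups compared, and each library left out. A fit without both PRC1CPM libraries numbered 1 was added after the values were seen, as was the count of reads between nested starts. Figures and summaries used Python 3.11.15, pandas 2.3.3, scipy 1.17.1 and matplotlib 3.10.9.

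Deviations of same-numbered libraries from their condition means correlated above 0.1 in 17 of 18 pairs, including every pair of PRC1CPM OHT with untreated and every pair of the lines within a treatment. The exception was 0.0988, for the PRC1CKO libraries numbered 2. With 0.1 as the cutoff, the numbers were read as pairing all of these comparisons but PRC1CKO OHT against untreated and the interaction. The PRC1CKO pairs numbered 1 and 3 were at 0.179 and 0.148. The 36 pairs of different number ran from -0.26 to 0.0275. PRC1CKO OHT against untreated thus missed the cutoff by 1 pair that lay close to it.

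All 8 members were named. Of 5 pathway lists, named genes are those called in the same direction in both lines and, for each list, those with the largest and smallest log2 fold change in PRC1CKO cells. For each member, the gene with the highest Pearson correlation is also named. Marker genes, Egr1 and Arc were named after their values were seen. Some listed genes that enter the counts are not reported here by name. Members and lists were chosen with earlier results of these data known. Gene positions come from the table (mm10, which is GRCm38) and were made 1-based. Exons and promoter windows are from RefSeq on GRCm38.p6, which held promoter windows for 6 of the 8 members.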

Additional observations from a re-analysis of the deposited data

Results flagged for a closer look

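Ngfr was lower after OHT in each PRC1CKO library and higher in each PRC1CPM library than in the untreated library of the same number, and its log2 change was greater by 0.67 ± 0.35 (SE) in PRC1CPM cells. The numbers were not read as pairing treated with untreated PRC1CKO libraries, as 1 pair was at 0.0988, short of 0.1. They were read as pairing the PRC1CPM ones. A block for replicate number gave Ngfr in PRC1CPM cells a limma adjusted p of 0.0109, at a log2 change of 0.46. That change was not called, as it was below the fold change set for a call. Without pairs the treated and untreated libraries overlapped in both lines. The difference was tested as the interaction of line and treatment, without a block, and did not pass the threshold (limma adjusted p = 1.00). With a block for replicate number the interaction of Ngfr was 0.67 ± 0.21 (SE, limma adjusted p = 0.0778), which did not pass the threshold either. With any 1 library left out and no block the interaction of Ngfr lay between 0.46 and 0.88.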

How the results depend on the processing

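The same 7 members in PRC1CKO and 6 in PRC1CPM cells were called with edgeR, with DESeq2 and without both PRC1CPM libraries numbered 1, and leaving out any 1 library gave 6 to 7 and 6 to 6. The member missing with 6 was Bdnf, in PRC1CKO cells. Between the treated lines 1 member, Bdnf, was called with TMM and with median-of-ratios scaling, against 0, where 4.63% and 4.57% of all transcripts were called, against 1.47%. With the replicate block 1 member, Ntrk2, was called between the untreated lines, against 0, and the block changed no other call of a member. It moved interaction calls over all transcripts from 0 higher and 4 lower to 78 and 246, and those lower in PRC1CKO cells after OHT from 524 to 823. The block gave Bdnf an interaction of -0.91 (limma adjusted p = 0.0646), and -1.12 (0.0185) when counted from its second start. TMM and median-of-ratios scaling raised the lower calls over all transcripts from 524 to 1133 and 1159 in PRC1CKO and from 237 to 595 and 615 in PRC1CPM cells. Between the untreated lines they moved the calls from 374 higher and 81 lower to 745 and 305 and to 742 and 304, and interaction calls from 4 to 14 and 13. A fit of only the groups compared called 0 members between the lines (with 7 of 8 tested between the untreated ones), and moved the calls over all transcripts to 540 higher and 141 lower (4.08%) between the treated lines, against 212 and 37, and to 224 and 45 between the untreated lines, against 374 and 81. Between the treated lines DESeq2 called 344 and 85, edgeR 268 and 59, the fit with no filter 136 and 21, that with 0.1 as pseudocount 165 and 24, and that without both PRC1CPM libraries numbered 1 116 and 83. The last of these called 224 higher between the untreated lines, and the fit with no filter 243. Interaction calls were 15 with DESeq2, 9 without both libraries numbered 1, 1 with 0.1 as pseudocount and 0 by limma with no filter (634 at an unadjusted p under 0.05), against 4. Leaving out 1 library moved calls over all transcripts as well. Those higher in PRC1CPM cells went from 2226 to 1435 without treated replicate 1, and those lower from 237 to 121 without treated replicate 2, 131 without untreated replicate 3, 139 without untreated replicate 1 and 152 without treated replicate 3. Those lower in PRC1CKO cells went from 524 to 325 without untreated replicate 1 and 330 without treated replicate 2. Calls higher between the treated lines went from 212 to as few as 82 without PRC1CPM treated replicate 1 and as many as 399 without PRC1CKO untreated replicate 1, and between the untreated lines from 374 to as few as 170 without PRC1CKO untreated replicate 3 and as many as 1491 without PRC1CKO untreated replicate 1. Calls lower ranged from 17 (without PRC1CKO treated replicate 2) to 78 (without PRC1CKO untreated replicate 1) between the treated lines, against 37, and were as few as 46 (without PRC1CPM untreated replicate 3) between the untreated lines, against 81. Interaction calls lower ranged from 1 (without PRC1CKO treated replicate 1 or PRC1CPM treated replicate 2 or 3) to 28 (without PRC1CKO untreated replicate 1), against 4. The causes were not tested.

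Small differences changed sign, none of them called. Without both PRC1CPM libraries numbered 1 Bdnf in PRC1CPM cells was at 0.085, the interaction of Ntf3 at 0.011 and Ntrk3 between the untreated lines at -0.13. With 1 library left out, the ranges that crossed 0 were -0.16 to 0.11 for Bdnf in PRC1CPM cells. For Ntf3 they were -0.62 to 0.29 (untreated lines) and -0.60 to 0.30 (interaction). For Ntrk3 they were -0.37 to 0.13 (treated lines), -0.13 to 0.71 (untreated lines) and -0.82 to 0.015 (interaction). For Gdnf they were -0.21 to 0.13, -0.49 to 0.69 and -0.71 to 0.46 in the same order, and for Ret -0.23 to 0.0071 (treated lines). Gdnf, with 2 to 10 reads in untreated libraries, is the member whose size is least well set by depth.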
